A study of Mus musculus with 16 samples.

Results

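Brown fat of suckling pups on postnatal day 4 (P4) was compared with brown fat of young mice at 4 weeks of age (4W). The members are the 3 arrays whose labels give an age of 4 weeks and the 4 arrays whose labels give P4, which makes 7 of the 16 arrays in the series. All 7 held brown adipose tissue, taken whole, from the inbred strain C57BL6/N, with no allele or treatment named, and total RNA of the tissue was labelled with Cy3. The other arrays came from embryonic day 18 (E18), postnatal day 10 (P10) and 8 weeks (8W). They served to estimate the spread within an age and are described only where they help to read a value. The labels leave out which depot was dissected, the sex, whether tissue was pooled, and if each array stands for its own animal. P-values therefore set the difference between the ages only against the scatter of these arrays, and that scatter may be technical.

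Brown fat burns fatty acids and glucose in its mitochondria and, through uncoupling protein 1 (Ucp1), releases the energy as heat. Noradrenaline from sympathetic nerves drives this through beta-adrenergic receptors and cyclic AMP. In the mouse the tissue is formed before birth, supports the newborn against cold, and grows during suckling on a diet of milk rich in fat. Weaning replaces milk with chow, in which starch is the main fuel, and sugar that is not burned can be turned into fat in the adipocyte itself. The comparison asks how the transcriptome of this tissue differs between early suckling and the age at which mice have been weaned. Genes of the contracting apparatus of muscle were set apart, since strands of muscle lie next to brown fat in the body.

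Values below are levels, that is, the log2 of a probe's processed signal minus the log2 of the 75th percentile of its array, so 0 marks that percentile and each unit is a doubling. A level of 1 probe cannot be set against the level of another. Changes are 4W minus P4 on this scale from limma's fit over all 16 arrays, ± is the standard error (SE), and p-values are adjusted by the Benjamini-Hochberg method over 16436 genes, with a call at an adjusted p under 0.05. Each array limits the precision by its number only, 4 at P4 and 3 at 4W. Where a gene was not well above background on any array of an age, only a bound is given, as "at least N-fold", taken against the lowest signal that counts as above background on those arrays. A bound holds for the main processing only. Under some alternatives the log2 change was smaller than the bound, for example down to 5.09 for Ckmt2 and to -3.53 for Agtr2. Where only some arrays of an age measured a gene, its fold takes in dim readings on the rest. This holds for Cdk1, Gatm, Fbn2 and Igfbp2 (above background on 1 of 3 4W arrays), Arntl and Igf2 (2 of 3), Myh4, Myot and Mup19 (1 of 4 P4 arrays), Igfals (2 of 4) and Cyp2e1 (3 of 4).

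Most genes differed between the ages. Of 16436 genes, 11193 passed the test (68.1%), 5558 of them higher at 4W (33.8%) and 5635 lower (34.3%). The 4 P4 arrays and the 3 4W arrays did not overlap at 10935 genes (66.5%). Counts of list members given below are to be read beside these shares of all genes. At least 2-fold differences were called for 1653 genes higher at 4W (10.1%) and 2136 lower (13%), and at least 8-fold differences for 214 and 228 genes. These counts use dim readings too, since 436 genes were above background at 4W only and 1290 at P4 only. With only probes above background on every array of both ages, 1246 genes were at least 2-fold higher and 998 lower. The median log2 change over all genes was -0.0538. Scaling by the array median moved this median to 0.2611 and the split to 6979 genes higher and 2975 lower. With genes of the 3 muscle lists left out, 11133 of 16366 genes passed, 5500 higher and 5633 lower.

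Slide and age are nearly confounded. P4 replicate 1 lay on slide 2 with all 4W arrays, and the other 3 P4 arrays lay on slide 1. With slide as a block 10224 genes were called, 5335 higher and 4889 lower. On slide 2 alone, where 1 P4 array faced the 3 4W arrays and was assumed to vary like the other groups, 8904 were called, 4782 higher and 4122 lower. Values for both settings stand beside the gene lists below. P4 replicate 3 stood apart. The 75th percentile of its signal was 351, against 607 to 752 on the other P4 arrays and 523 to 613 at 4W. It differed from the mean of the other P4 arrays by a median of 0.157 over genes, and the other 6 arrays differed from theirs by 0.0705 to 0.113. Without it 11076 genes passed. Among the brightest genes, 137 with a mean level of 8 or more, P4 replicate 3 lay a median of 0.31 above the other P4 arrays and P4 replicate 1 lay 0.21 below them, whereas no 4W array departed by more than 0.034. No spot was saturated.

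The tissue carried the markers of brown adipocytes at both ages. Ucp1 read 9.23, 9.54, 10.04 and 9.54 at P4 and 9.30, 9.43 and 9.55 at 4W. The ages overlapped and the change did not pass the test (log2 change -0.16 ± 0.15 (SE), adjusted p = 0.37). Its value was 0.15 with slide as a block and 0.20 on slide 2, over all alternatives it ran from -0.28 to 0.20, and with the deposited series matrix it passed as lower (-0.17, adjusted p = 0.029). Its P4 arrays were ordered as the brightest genes were, with replicate 1 lowest and replicate 3 highest. Prdm16, a coregulator that keeps cells on the brown fat path, read 0.66, 0.51, 0.68 and 0.56 at P4 and 0.51, 0.63 and 0.73 at 4W. It too overlapped (log2 change 0.019 ± 0.055 (SE), adjusted p = 0.77). Cidea, a lipid droplet protein abundant in brown fat, read 9.39, 9.34, 9.78 and 9.34 at P4 and 9.92, 9.87 and 9.94 at 4W. All 4W arrays lay above all P4 arrays by a small margin (log2 change 0.45 ± 0.093 (SE), adjusted p = 8.19e-04). Cox7a1, a cytochrome c oxidase subunit of heart, muscle and brown fat, read 8.74, 8.86, 9.16 and 8.85 at P4 and 9.10, 9.14 and 9.06 at 4W, with overlap. It passed narrowly (log2 change 0.20 ± 0.077 (SE), adjusted p = 0.036), but missed the threshold without P4 replicate 1, 2 or 4 or without any 1 of the 4W arrays (adjusted p from 0.0503 to 0.102), and passed as lower (-0.0971) with the series matrix.

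**Figure D1:**
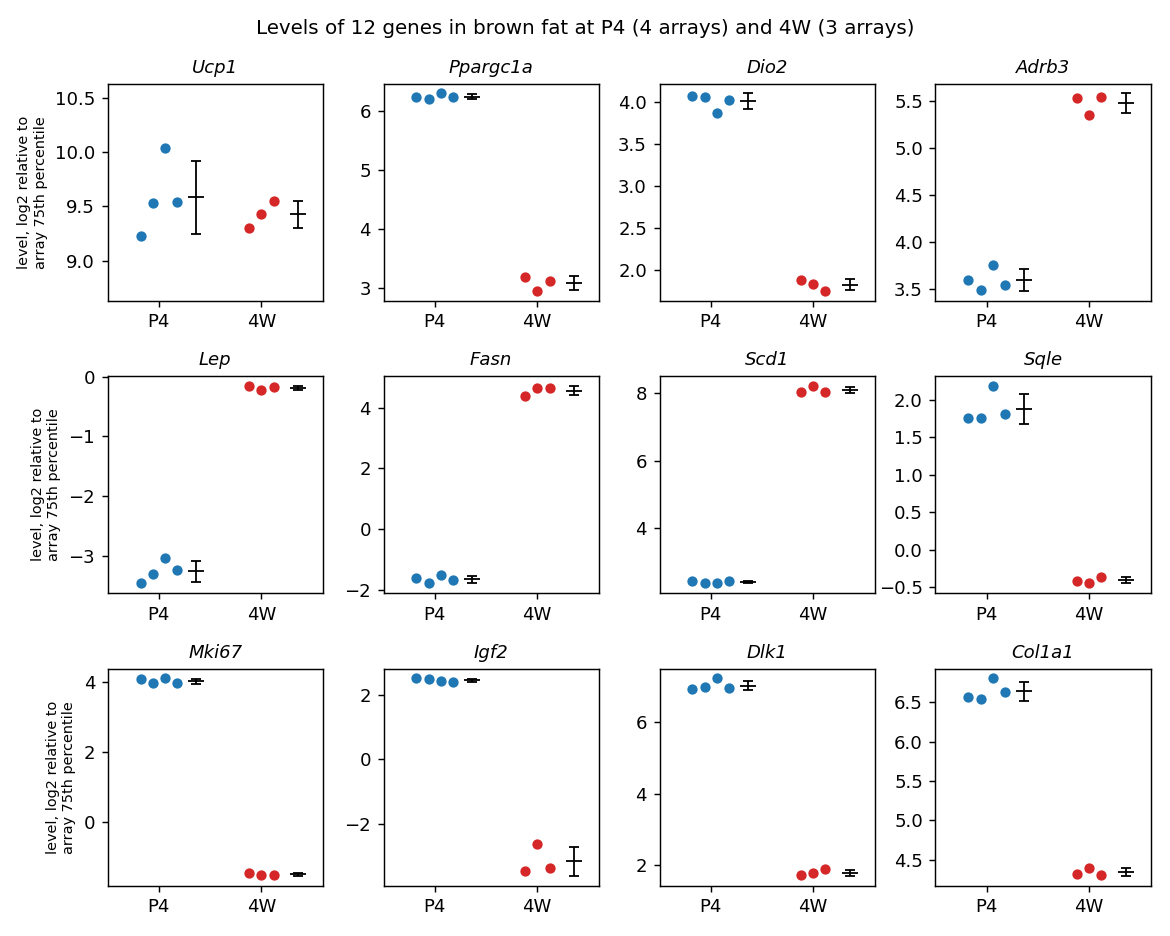
Levels of 12 genes on the 4 P4 arrays (blue) and the 3 4W arrays (red), in log2 relative to the array's 75th percentile; black bars give the mean ± SD of an age, and each panel has its own axis of at least 2 log2 units. Ucp1 overlaps between the ages, and the other 11 genes do not.

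Within the list of thermogenic genes, 14 of 25 measured members were higher at 4W and 3 lower, with a median log2 change of 0.32 (0.48 with slide as a block and 0.43 on slide 2). The 3 that fell are upstream regulators. Ppargc1a, the cold-inducible coactivator of mitochondrial and thermogenic genes, read 6.24, 6.21, 6.30 and 6.25 at P4 and 3.18, 2.96 and 3.13 at 4W. Every 4W array lay far below every P4 array, an 8.95-fold fall (log2 change -3.16 ± 0.053 (SE), adjusted p = 2.92e-14). Dio2, which converts thyroxine to active thyroid hormone within the tissue, read 4.07, 4.07, 3.87 and 4.03 at P4 and 1.88, 1.83 and 1.75 at 4W, with no overlap. It fell 4.57-fold (log2 change -2.19 ± 0.054 (SE), adjusted p = 8.95e-13). The transcription factor Ebf2, named after its values were seen, fell 2.29-fold. Dio2 was highest at P4 of all 5 ages, with means of 0.79 at E18, 1.06 at P10 and -1.96 at 8W. Ppargc1a was highest at P4 too, its next highest mean being 3.50 at P10.

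Among the thermogenic members, Acot11, Elovl3 and Slc27a2 rose most without overlap, and they handle fatty acids. Acot11, a thioesterase that splits long-chain acyl-CoA and is induced by cold in brown fat, read -0.16, -0.24, 0.0036 and -0.13 at P4 and 5.94, 5.78 and 5.85 at 4W. It rose 63.3-fold (log2 change 5.98 ± 0.065 (SE), adjusted p = 6.49e-16) and stayed at 6.11 at 8W. Elovl3, which lengthens saturated fatty acids, read -2.50, -2.75, -2.69 and -2.83 at P4 and -0.30, -0.21 and -0.29 at 4W, a 5.39-fold rise (log2 change 2.43 ± 0.12 (SE), adjusted p = 6.50e-10), although its mean at 8W was back at -2.02. Slc27a2, an acyl-CoA synthetase for very long chains, rose 5.18-fold. Cpt1b, which admits long-chain fatty acids to mitochondria, read 5.43, 5.30, 5.22 and 5.28 at P4 and 5.62, 5.63 and 5.64 at 4W. It rose 1.25-fold, without overlap (log2 change 0.32 ± 0.053 (SE), adjusted p = 1.29e-04).

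Receptors and relays of adrenergic signalling moved in both directions, 9 of 17 members higher and 6 lower, with a median of 0.25 (0.21 with slide as a block and 0.20 on slide 2). Over all genes 33.8% were higher and 34.3% lower. Adrb3, the beta receptor of adipocytes, read 3.59, 3.49, 3.75 and 3.54 at P4 and 5.54, 5.36 and 5.54 at 4W. It rose 3.7-fold (log2 change 1.89 ± 0.094 (SE), adjusted p = 9.14e-10). Rgs2, which shortens signalling of G proteins, rose 6.92-fold. Sik1, a kinase induced by cyclic AMP, read 1.57, 1.58, 1.67 and 1.63 at P4 and -1.39, -1.47 and -1.50 at 4W and fell 8.38-fold (log2 change -3.07 ± 0.053 (SE), adjusted p = 3.96e-14).

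Genes that respond quickly to cyclic AMP and other stimuli were lower at 4W as well. Of 16 immediate early genes 11 fell and 2 rose, with a median of -0.43 (-0.48 with slide as a block and -0.45 on slide 2). On slide 2 alone 6 were called lower and 1 higher. Atf3, a stress-induced repressor, read 1.77, 1.6, 1.71 and 1.64 at P4 and -2.31, -2.20 and -2.04 at 4W. It fell 14.5-fold (log2 change -3.86 ± 0.094 (SE), adjusted p = 8.02e-13). Nr4a3, an orphan nuclear receptor, was above background at P4 only, at -3.10, -3.27, -3.09 and -3.12, and was at least 1.93-fold lower at 4W (adjusted p = 9.52e-09). Egr1 fell 2.26-fold. Fosb fell 2.03-fold, and on slide 2 alone its log2 change was -0.76 without passing the test (adjusted p = 0.20). The labels do not give how long tissue was handled before extraction, and its part in these genes was not tested.

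Creatine and calcium cycling, proposed as heat-producing cycles that do not need Ucp1, showed 6 of 8 members higher and 2 lower (median 0.94, 0.86 with slide as a block and 0.94 on slide 2). Pm20d1, which makes N-acyl amino acids, rose 3.8-fold. The creatine transporter Slc6a8 rose 2.18-fold. Gatm, the first enzyme of creatine synthesis, read -2.03, -2.15, -2.09 and -2.07 at P4 and -4.04, -3.69 and -3.81 at 4W and fell 3.39-fold (log2 change -1.76 ± 0.11 (SE), adjusted p = 6.96e-09). The calcium pump Atp2a2 rose 2.24-fold. It is also a pump of slow muscle, and the part of muscle in its rise was not tested.

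Genes for the synthesis of fatty acids and triglycerides rose broadly. Of 26 members 22 were higher at 4W and 4 lower, 21 of them at least 2-fold higher, and the list had a median change of 2.08 (2.04 with slide as a block and 2.12 on slide 2). No member overlapped between the ages, which held for 66.5% of all genes. Fasn, fatty acid synthase, read -1.61, -1.78, -1.51 and -1.67 at P4 and 4.38, 4.66 and 4.64 at 4W. All 4 P4 arrays were below their 75th percentile and all 3 4W arrays far above it, a 73.5-fold rise (log2 change 6.20 ± 0.075 (SE), adjusted p = 2.07e-15). Scd1, which puts the double bond into stearate, read 2.45, 2.40, 2.38 and 2.46 at P4 and 8.04, 8.20 and 8.03 at 4W. It rose 50.9-fold (log2 change 5.67 ± 0.053 (SE), adjusted p = 2.58e-16).

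The steps before them rose as well. Acly, which makes cytosolic acetyl-CoA from citrate, read 4.60, 4.67, 5.03 and 4.72 at P4 and 7.55, 7.66 and 7.43 at 4W and rose 6.93-fold (log2 change 2.79 ± 0.087 (SE), adjusted p = 9.41e-12). Acaca, acetyl-CoA carboxylase 1, read 3.72, 3.58, 3.63 and 3.56 at P4 and 7.66, 7.67 and 7.83 at 4W and rose 17.1-fold (log2 change 4.10 ± 0.079 (SE), adjusted p = 9.28e-14). Aacs, which activates ketone bodies for lipid synthesis, rose 17.5-fold. Among the regulators, Srebf1, the insulin-responsive activator of these genes, read -0.12, -0.26, -0.62 and -0.30 at P4 and 2.73, 2.90 and 2.82 at 4W. It rose 8.8-fold (log2 change 3.14 ± 0.095 (SE), adjusted p = 6.75e-12). Mlxipl, the carbohydrate response element binding protein ChREBP, read 4.38, 4.30, 4.67 and 4.38 at P4 and 6.56, 6.41 and 6.45 at 4W and rose 4.11-fold (log2 change 2.04 ± 0.10 (SE), adjusted p = 8.91e-10), but another probe of the gene passed as lower (-0.55), so its direction depends on the probe.

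The 4 members that fell, named after their values were seen, were Fads2 and Fads1, the desaturases of polyunsaturated fatty acids, with Dgat1 and Elovl5. Fads1 read -0.27, -0.42, -0.53 and -0.39 at P4 and -1.56, -1.66 and -1.44 at 4W and fell 2.21-fold (log2 change -1.15 ± 0.074 (SE), adjusted p = 1.34e-08). Dgat1, one of the enzymes that complete a triglyceride, fell 1.48-fold, whereas Dgat2, which does the same step, rose 4.24-fold. Elovl5, the elongase that works with the Fads enzymes, fell 1.15-fold. Fads2 was above background at P4 only, at -4.01, -4.04, -4.33 and -3.73, and was at least 1.04-fold lower (adjusted p = 4.54e-06).

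Across the 5 ages Fasn and Scd1 did not follow age in 1 direction. Fasn had a mean of -1.64 at P4 and -0.96 at P10, against 1.78 at E18, 4.56 at 4W and 6.08 at 8W, so both suckling ages were below the fetal and the weaned ones. Scd1 followed the same course, with 5.54, 2.42, 3.75, 8.09 and 8.86. These levels at other ages are a description.

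**Figure D2:**
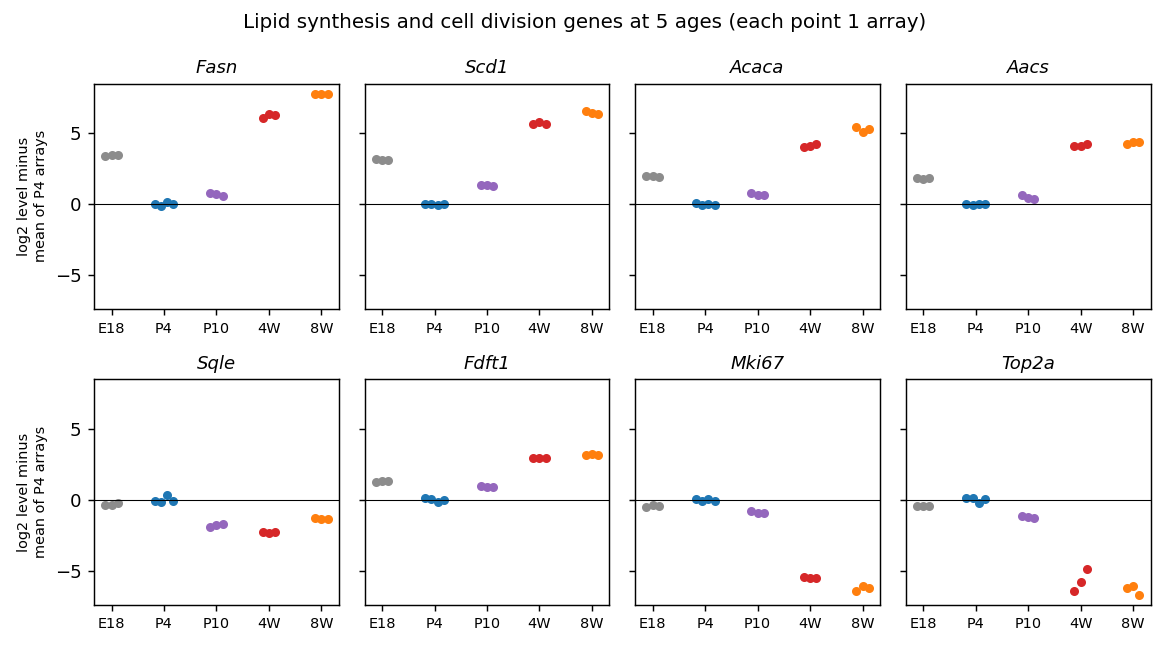
Level of 8 genes on each of the 16 arrays minus the mean of the 4 P4 arrays, in log2, by age. Fasn, Scd1, Acaca and Aacs are lowest at P4 and higher at 4W, Mki67 and Top2a are low at 4W and 8W, Sqle is lower at 4W than at P4 and Fdft1 is higher.

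The proximal promoter of Fasn is shown because the gene rose most of its list. The 100 bases before its start site on the minus strand (GRCm38.p6, RefSeq, chr11:120824548-120824647) hold 3 copies of CCAAT or its reverse complement, 2 of which overlap, in capitals.
Fasn: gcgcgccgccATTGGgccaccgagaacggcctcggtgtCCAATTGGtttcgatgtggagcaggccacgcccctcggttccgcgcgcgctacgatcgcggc
The sterol element TCACNCCAC was found, on either strand of the 250 bases before a start site, at 1 of 21 genes of the list with a promoter in the table and at 1.18% of all genes tested. The E-box CACGTG was at 3 of 21 genes (14.3%), against 8.89% of all genes tested, and CCAAT at 12 of 21 (57.1%), against 39.3%. CCAAT was not among the motifs planned for the lipid lists. A match describes letters in a window and is not evidence that a factor binds.

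Cholesterol synthesis did not move with fatty acid synthesis. Of 25 members 9 were higher and 10 lower, with a median of -0.0304 that turned sign in 6 of the alternatives (-0.088 with slide as a block and -0.11 on slide 2). Sqle, squalene epoxidase, read 1.76, 1.76, 2.18 and 1.81 at P4 and -0.41, -0.44 and -0.36 at 4W, with no overlap. It fell 4.87-fold (log2 change -2.28 ± 0.091 (SE), adjusted p = 1.01e-10). In the opposite direction, Fdft1, squalene synthase, read 1.11, 1.05, 0.88 and 1.02 at P4 and 3.94, 3.97 and 3.95 at 4W and rose 7.66-fold (log2 change 2.94 ± 0.052 (SE), adjusted p = 4.75e-14). Sc5d, a late desaturase of the pathway, rose 5-fold. Sqle uses the product of Fdft1, so neighbouring steps moved apart. Of the motifs planned for the lipid lists, TCACNCCAC was in the promoter window of 1 of 17 genes of this list, against 1.18% of genes tested. CACGTG was at 4 of 17 (23.5%), against 8.89%. CCAAT, not planned for these lists, was at 16 of 17 (94.1%), against 39.3%.

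Genes of the adipocyte itself were mostly higher, 20 of 24 with 2 lower, at a median of 0.43 (0.48 with slide as a block and 0.53 on slide 2). Lep, the satiety hormone leptin, read -3.46, -3.31, -3.04 and -3.23 at P4 and -0.16, -0.23 and -0.18 at 4W. It rose 8.4-fold (log2 change 3.07 ± 0.098 (SE), adjusted p = 1.07e-11). Adipoq, adiponectin, read 7.79, 7.72, 7.94 and 7.74 at P4 and 8.06, 8.00 and 8.24 at 4W, just without overlap, and rose 1.23-fold (log2 change 0.30 ± 0.072 (SE), adjusted p = 0.0021), and on slide 2 alone its log2 change was 0.31 without passing the test (adjusted p = 0.10). Retn, resistin, rose 8.3-fold. The insulin-responsive glucose transporter Slc2a4 read 5.46, 5.33, 5.53 and 5.35 at P4 and 7.43, 7.43 and 7.46 at 4W and rose 4.06-fold (log2 change 2.02 ± 0.057 (SE), adjusted p = 3.28e-12). Nnat, an imprinted gene of adipocyte differentiation, went the other way, from 5.40, 5.38, 5.39 and 5.38 at P4 to 1.05, 1.18 and 1.13 at 4W, a 19.3-fold fall (log2 change -4.27 ± 0.058 (SE), adjusted p = 3.91e-15). Its mean was highest at P4 of all 5 ages, at -2.0 at E18 and 1.64 at P10.

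Lipid uptake and lipolysis rose as a group, 15 of 18 members higher and none lower, at a median of 1.00 (1.02 with slide as a block and 1.06 on slide 2). Apoe, a lipoprotein ligand, read 6.92, 6.89, 6.95 and 6.86 at P4 and 8.63, 8.74 and 8.72 at 4W and rose 3.46-fold (log2 change 1.79 ± 0.04 (SE), adjusted p = 3.89e-13). Vldlr, its receptor for triglyceride-rich particles, rose 3.09-fold. Lipe, hormone-sensitive lipase, rose 2.52-fold. Fabp3, a fatty acid binding protein of heart, muscle and cold-active brown fat, read 4.51, 4.49, 4.73 and 4.48 at P4 and 8.51, 8.73 and 8.51 at 4W and rose 16.4-fold (log2 change 4.03 ± 0.068 (SE), adjusted p = 2.92e-14). Muscle genes rose with it, and their part in this rise was not tested.

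Fatty acid oxidation had a smaller median change than synthesis. Of 24 members of fatty acid oxidation and ketone use 16 were higher and 2 lower, only 3 of them at least 2-fold, with a median of 0.34 (0.34 with slide as a block and 0.40 on slide 2). Oxct1, which starts the use of ketone bodies, read 4.37, 4.24, 4.46 and 4.33 at P4 and 5.54, 5.49 and 5.58 at 4W. It rose 2.28-fold (log2 change 1.19 ± 0.059 (SE), adjusted p = 9.85e-10). Cpt2, which releases the fatty acid inside the mitochondrion as acyl-CoA, rose 1.8-fold. Cpt1a, the liver form of the mitochondrial gatekeeper, read 1.96, 1.76, 1.81 and 1.80 at P4 and 0.89, 0.90 and 0.97 at 4W and fell 1.88-fold (log2 change -0.91 ± 0.052 (SE), adjusted p = 3.82e-09), opposite to Cpt1b.

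Glucose uptake and glycolysis had 16 of 19 members higher and none lower, at a median of 0.75 (0.75 with slide as a block and 0.81 on slide 2). With slide as a block 1 member was called lower. Hk2, the hexokinase induced by insulin, read 2.93, 2.78, 2.80 and 2.50 at P4 and 4.48, 4.59 and 4.59 at 4W and rose 3.48-fold (log2 change 1.80 ± 0.094 (SE), adjusted p = 1.56e-09). Aldoc rose 3.78-fold and Pfkm, the muscle form of phosphofructokinase, 2.62-fold. The part of muscle in the rise of Pfkm was not tested.

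In the mitochondrion, 15 of 22 members of the tricarboxylic acid cycle and pyruvate entry were higher and 1 lower (median 0.38, 0.38 with slide as a block and 0.39 on slide 2), none by 2-fold or more. Dlat, the E2 subunit of pyruvate dehydrogenase, rose 1.93-fold and Pdha1, of its E1, rose 1.83-fold. Pcx, which refills the cycle from pyruvate, rose 1.84-fold. Cs, citrate synthase, named after its values were seen, was the member that fell (1.29-fold). For the respiratory chain 31 of 53 subunits were higher and 1 lower at a median of 0.23 (0.25 with slide as a block and 0.28 on slide 2), and no rise reached 2-fold. The largest was that of Ndufa1, of complex I (1.7-fold). Uqcrc1, of complex III, rose 1.59-fold and Ndufa4 1.53-fold. Atp5g1, one of the genes for subunit c of ATP synthase, read 5.81, 5.79, 5.57 and 5.74 at P4 and 4.47, 4.49 and 4.52 at 4W and fell 2.35-fold (log2 change -1.24 ± 0.059 (SE), adjusted p = 5.55e-10). The gene was lower still at 8W (3.30). These subunits are also abundant in muscle, and the part of muscle in their rise was not tested.

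Branched chain amino acid breakdown rose at 15 of 16 members, with none lower (median 0.87, 0.86 with slide as a block and 0.83 on slide 2). Bcat2, the mitochondrial aminotransferase that takes the first step, read 2.26, 2.20, 2.20 and 2.22 at P4 and 3.96, 3.78 and 3.77 at 4W. It rose 3.07-fold (log2 change 1.62 ± 0.066 (SE), adjusted p = 1.19e-10). Bckdha and Dbt, of the dehydrogenase that takes the next, rose 2.5-fold and 2.26-fold, and Hibch of the valine branch rose 2.36-fold.

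**Figure D3:**
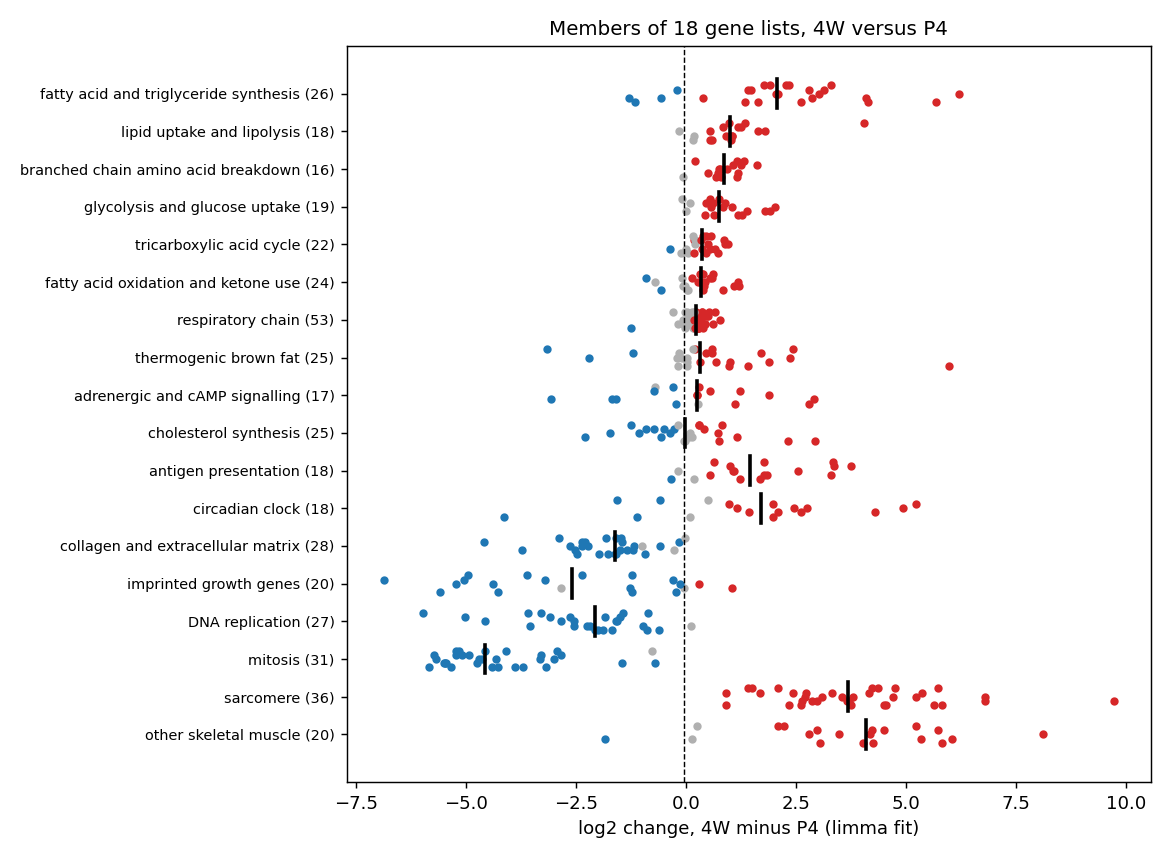
Log2 change from P4 to 4W of every measured member of 18 gene lists, with the number measured in brackets; red and blue points passed the test as higher and lower, grey points did not, black bars are list medians and the dashed line is the median of all 16436 genes. Medians run from -4.55 for mitosis to 4.10 for other skeletal muscle genes. Next at the low end are imprinted growth genes (-2.59) and DNA replication (-2.07). Next at the high end are sarcomere genes (3.69) and fatty acid and triglyceride synthesis (2.08).

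Cell division genes had the lowest median of the lists. In the mitosis list 30 of 31 members were lower and none higher, 29 by at least 2-fold, at a median of -4.55 (-4.59 with slide as a block and -4.60 on slide 2). Of the members called lower, 10 were above background at P4 only, and the count of 2-fold falls uses their dim 4W readings. With these 10 at their bound the median was -3.93. Mki67, the marker of cycling cells, read 4.07, 3.95, 4.09 and 3.95 at P4 and -1.43, -1.51 and -1.50 at 4W. It fell 45.1-fold (log2 change -5.49 ± 0.074 (SE), adjusted p = 3.91e-15). Birc5, survivin, read 4.30, 4.21, 4.36 and 4.28 at P4 and -1.48, -1.53 and -1.31 at 4W and fell 53-fold (log2 change -5.73 ± 0.069 (SE), adjusted p = 2.07e-15). Top2a, the topoisomerase that untangles chromosomes, was above background at P4 only (1.03, 1.04, 0.72 and 0.96) and was at least 29.3-fold lower at 4W (adjusted p = 5.74e-10). Melk was at least 20.04-fold lower. In whole tissue, fewer cells of a type and less RNA per cell cannot be told apart.

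DNA replication fell at 26 of 27 members, none rising, at a median of -2.07 (-2.12 with slide as a block and -2.06 on slide 2). With slide as a block 1 member was called higher. Tk1, thymidine kinase, read 3.48, 3.44, 3.09 and 3.42 at P4 and -2.69, -2.61 and -2.54 at 4W, a 62.9-fold fall (log2 change -5.98 ± 0.093 (SE), adjusted p = 1.36e-14). Rrm2, the regulated subunit of ribonucleotide reductase, read 3.74, 3.69, 3.85 and 3.78 at P4 and -1.23, -1.31 and -1.19 at 4W and fell 32.2-fold (log2 change -5.01 ± 0.051 (SE), adjusted p = 3.87e-16). Chaf1b, of the chromatin assembly factor, fell 11.9-fold. E2f8, a repressor that is itself active in S phase, was at least 16.3-fold lower. Pcna, the sliding clamp of the replication fork, fell 2.67-fold, and Mcm7, of the replicative helicase, fell 2.83-fold, both named after their values were seen. Mki67 stood at 3.58 at E18, 3.16 at P10 and -2.22 at 8W, so at P10 it was still closer to P4 than to 4W.

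Promoters of cell division genes are known for CCAAT boxes and for the cell cycle element TTTGAA. Within 250 bases before the start site, on either strand, CCAAT was found at 21 of the 27 mitosis genes with a promoter in the table (77.8%) and at 14 of 23 replication genes (60.9%), against 39.3% of genes tested. TTTGAA was at 9 of 27 mitosis genes (33.3%) and 4 of 23 replication genes (17.4%), against 14% of genes tested. TTTCGCG, an E2F-type site, was at 1 of 27 and 3 of 23 genes, against 1.44%, and TTTGCGC at none of either list, against 2.2%. The promoters of 4 genes were picked, with these matches known, to show the spacing. All lie on the minus strand of GRCm38.p6 (RefSeq), read 5′ to 3′ towards the start site, with matches to any of the 4 elements searched, on either strand, in capitals, and no matches overlap. They are Mki67 (chr7:135716470-135716569, bases -190 to -91), Cdk1 (chr10:69352913-69353052, bases -140 to -1), Ccnb2 (chr9:70421555-70421649, bases -95 to -1) and Top2a (chr11:99024190-99024294, bases -105 to -1).
Mki67: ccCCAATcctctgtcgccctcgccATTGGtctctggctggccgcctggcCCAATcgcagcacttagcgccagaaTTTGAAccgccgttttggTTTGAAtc
Cdk1: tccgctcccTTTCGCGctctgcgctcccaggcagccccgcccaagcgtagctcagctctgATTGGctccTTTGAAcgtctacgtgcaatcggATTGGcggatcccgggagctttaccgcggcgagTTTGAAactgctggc
Ccnb2: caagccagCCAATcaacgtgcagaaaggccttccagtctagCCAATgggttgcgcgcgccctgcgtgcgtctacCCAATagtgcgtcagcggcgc
Top2a: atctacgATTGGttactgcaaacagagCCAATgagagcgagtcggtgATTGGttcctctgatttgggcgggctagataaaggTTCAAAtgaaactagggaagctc
Cdk1, the kinase that drives entry to mitosis, read 1.24, 1.26, 1.03 and 1.23 at P4 and -4.36, -3.99 and -4.07 at 4W and fell 40.3-fold. Ccnb2, its cyclin B2 partner, read 3.10, 2.94, 2.93 and 2.96 at P4 and -2.03, -2.22 and -2.04 at 4W and fell 33.8-fold. For all 4 genes every 4W array was below every P4 array.

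Imprinted growth genes, which are expressed from 1 parental copy and are turned down across many organs after birth, fell at 16 of 20 measured members and rose at 2, with a median of -2.59 or -1.61 with 2 at their bound (-1.79 with slide as a block and -1.81 on slide 2). Mest, a paternally expressed gene tied to adipose expansion, read 4.89, 4.83, 4.96 and 4.85 at P4 and -2.0, -1.96 and -1.98 at 4W. The arrays of an age lay close together, and the fall was 116-fold (log2 change -6.86 ± 0.043 (SE), adjusted p = 4.96e-18). Igf2, the fetal growth factor, read 2.50, 2.48, 2.41 and 2.40 at P4 and -3.44, -2.63 and -3.36 at 4W and fell 48.2-fold (log2 change -5.59 ± 0.22 (SE), adjusted p = 7.24e-11). Dlk1, the preadipocyte factor Pref-1, read 6.93, 6.97, 7.21 and 6.93 at P4 and 1.72, 1.78 and 1.89 at 4W and fell 37.1-fold (log2 change -5.21 ± 0.077 (SE), adjusted p = 7.68e-15). Peg3 fell 33.1-fold. The 2 that rose, named after their values were seen, were Cdkn1c (2.07-fold) and Peg12 (1.22-fold). Cdkn1c, a maternally expressed cell cycle inhibitor, read 3.37, 3.28, 3.21 and 3.28 at P4 and 4.27, 4.35 and 4.38 at 4W. H19 was not analysed here.

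Fetal growth genes that bind RNA or chromatin fell at 8 of 11 members and rose at 1 (median -1.05, or -0.70 with 3 at their bound, -0.89 with slide as a block and -0.93 on slide 2). Igf2bp3 was above background at P4 only (-1.84, -2.06, -1.91 and -1.96) and at least 4.43-fold lower at 4W. Igf2bp1 was dim and uneven at P4 (-3.81, -1.94, -4.34 and -4.56), and its bound was 1.34-fold (adjusted p = 0.0015). Igf2bp2 fell 2.29-fold. Sox11 was at least 1.88-fold lower, but did not pass the test on slide 2 alone (adjusted p = 0.062).

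The growth hormone and insulin-like growth factor axis was split, 6 of 19 members higher and 10 lower at a median of -0.16 (-0.16 with slide as a block and -0.21 on slide 2), which turned positive under scaling by the array median. Of all genes 33.8% were higher and 34.3% lower. Ghr, the growth hormone receptor, read 2.89, 2.69, 2.69 and 2.63 at P4 and 4.75, 4.51 and 4.70 at 4W. It rose 3.81-fold (log2 change 1.93 ± 0.076 (SE), adjusted p = 8.80e-11). Igfals, which binds IGF in a ternary complex, rose 6.23-fold from a dim level. Prlr, the prolactin receptor, read 1.42, 1.32, 1.39 and 1.33 at P4 and -2.0, -1.74 and -2.01 at 4W and fell 9.7-fold (log2 change -3.28 ± 0.12 (SE), adjusted p = 4.00e-11), and its 8W mean was -4.05. Irs2, an adaptor of the insulin receptor, fell 4.05-fold, and Igfbp2 fell 4.07-fold.

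Genes of the extracellular matrix fell at 25 of 28 members, with none higher, at a median of -1.61 (-1.73 with slide as a block and -1.72 on slide 2). Col1a1, the main chain of type I collagen, read 6.57, 6.55, 6.80 and 6.63 at P4 and 4.32, 4.40 and 4.31 at 4W. It fell 4.91-fold (log2 change -2.30 ± 0.055 (SE), adjusted p = 7.23e-13). Mfap4, of elastic fibres, read 3.03, 3.00, 3.24 and 3.00 at P4 and -1.51, -1.53 and -1.50 at 4W and fell 23.9-fold (log2 change -4.58 ± 0.065 (SE), adjusted p = 5.33e-15). Fbn2, the fibrillin of developing tissue, fell 13.2-fold. Col5a2 and Mfap2 fell 7.37-fold and 6.24-fold. Mfap4 had E18 and P10 means of 2.91 and 2.90, near P4, and an 8W mean of -1.69, near 4W.

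Clock genes differed between the ages in both directions. Of 18 members 12 were higher and 4 lower, at a median of 1.70 (1.59 with slide as a block and 1.63 on slide 2). Dbp, an output of the clock and activator of metabolic genes, read 1.56, 1.39, 1.6 and 1.46 at P4 and 6.38, 6.47 and 6.45 at 4W. It rose 30.6-fold (log2 change 4.93 ± 0.084 (SE), adjusted p = 3.27e-14). Nr1d1, the repressor REV-ERB alpha, read -2.28, -2.39, -2.65 and -2.42 at P4 and 1.84, 1.79 and 1.92 at 4W and rose 19.5-fold (log2 change 4.29 ± 0.077 (SE), adjusted p = 5.10e-14). Ciart, which represses the clock's activators, was above background at 4W only (-0.61, -0.49 and -0.41) and at least 14.4-fold higher. Arntl, the activator BMAL1, read 0.70, 0.58, 0.68 and 0.62 at P4 and -3.34, -3.76 and -3.36 at 4W and fell 17.5-fold (log2 change -4.13 ± 0.085 (SE), adjusted p = 1.69e-13). In adult tissues Dbp and Nr1d1 peak at another time of day than Arntl, and the labels give no hour of collection, so age and hour cannot be told apart for these genes.

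Arntl was lower at 4W than at every other age, with means of 0.61, -0.19 and -0.37 at E18, P10 and 8W. Dbp had means of 2.04 at E18, 2.84 at P10 and 4.78 at 8W, all between those of P4 and 4W. The E-box CACGTG, through which Arntl and Clock act, was in the window of 5 of 15 clock genes (33.3%), against 8.89% of genes tested, a count made after the gene values were seen. Ciart holds 3 copies within 85 bases (minus strand, chr3:95882264-95882348, GRCm38.p6, RefSeq, bases -120 to -36), here in capitals.
Ciart: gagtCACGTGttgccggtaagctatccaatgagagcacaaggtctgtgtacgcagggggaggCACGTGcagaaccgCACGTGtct

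**Figure D4:**
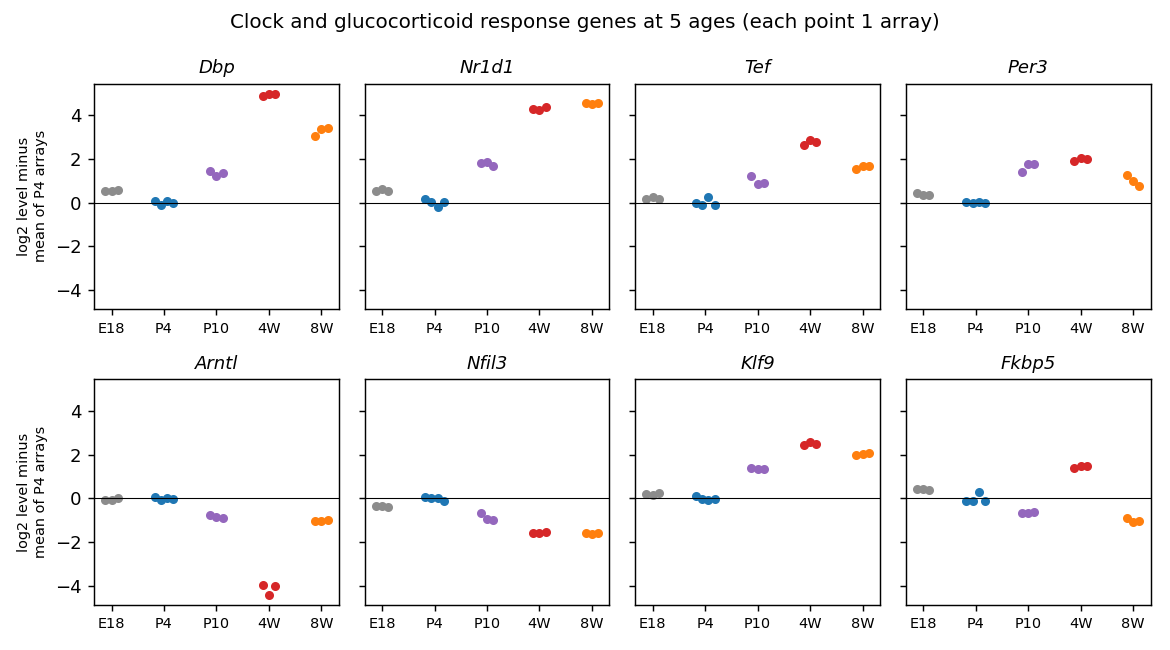
Level of 8 clock and glucocorticoid response genes on each of the 16 arrays minus the mean of the 4 P4 arrays, in log2, by age. Dbp, Nr1d1, Tef, Per3 and Klf9 are higher at 4W than at P4, Arntl and Nfil3 are lower, and the arrays of an age lie close together.

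Targets of hormones rose more often than they fell. In the glucocorticoid list 8 of 12 members were higher and 4 lower, at a median of 0.89 (0.78 with slide as a block and 0.81 on slide 2). The hour of collection is not given, and its part in this list was not tested. Klf9, also a thyroid hormone target, read 2.08, 1.91, 1.89 and 1.94 at P4 and 4.40, 4.54 and 4.44 at 4W. It rose 5.68-fold (log2 change 2.51 ± 0.051 (SE), adjusted p = 1.65e-13). Zbtb16, a zinc finger factor, rose 4.21-fold, Sult1a1 rose 3.62-fold and Fkbp5, a chaperone of the receptor, 2.71-fold. Hsd11b1, the enzyme that regenerates active glucocorticoid in the cell, read -1.23, -1.20, -1.16 and -1.18 at P4 and 5.40, 5.43 and 5.47 at 4W. It rose 98.8-fold (log2 change 6.63 ± 0.036 (SE), adjusted p = 1.28e-18), among the largest rises of all, and stood at 6.19 at 8W against -0.93 at P10.

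In the thyroid hormone list 7 of 12 members were higher and 3 lower, at a median of 0.51 (0.47 with slide as a block and 0.48 on slide 2). Thrsp, Spot 14, a target that promotes fat synthesis, read 6.50, 6.57, 6.65 and 6.61 at P4 and 8.76, 8.84 and 8.94 at 4W and rose 4.81-fold (log2 change 2.27 ± 0.052 (SE), adjusted p = 4.60e-13). Hr, a corepressor and known target of the hormone, rose 5.42-fold. Dio2, given above, fell, so the activating enzyme and several targets moved in opposite directions.

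Genes of protein folding and amino acid stress were divided, 9 of 17 higher and 8 lower (median 0.26, 0.20 with slide as a block and 0.23 on slide 2). Chac1, which degrades glutathione, read -3.20, -3.13, -3.08 and -3.01 at P4 and 1.72, 1.75 and 1.79 at 4W. It rose 29.1-fold (log2 change 4.86 ± 0.06 (SE), adjusted p = 2.26e-15). Herpud1, of endoplasmic reticulum degradation, rose 5.69-fold and the small heat shock protein Hspb1, which muscle also makes, 4.12-fold. Atf4, the activator of the amino acid response and of Chac1, read 7.11, 7.04, 7.53 and 7.16 at P4 and 5.28, 5.36 and 5.50 at 4W and fell 3.56-fold (log2 change -1.83 ± 0.11 (SE), adjusted p = 5.34e-09).

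Antigen presentation rose at 15 of 18 members and fell at 1, at a median of 1.46 (1.46 with slide as a block and 1.45 on slide 2). H2-Aa, a chain of the class II molecule that presents peptides to helper T cells, read -2.20, -2.38, -2.42 and -2.33 at P4 and 1.41, 1.33 and 1.5 at 4W. It rose 13.4-fold (log2 change 3.75 ± 0.066 (SE), adjusted p = 4.31e-14). H2-Eb1 and H2-Ab1, of the same class, rose 10.3-fold and 10.1-fold, and Cd74, their invariant chain, 9.85-fold. H2-Aa had an E18 mean of -4.73 and a P10 mean of -0.27. The interferon response list showed 11 of 20 members higher and 2 lower, at a median of 0.28 (0.28 with slide as a block and 0.26 on slide 2). Irf7 rose 3.42-fold, Ifit3 3.07-fold, and Ifit1 2.41-fold (log2 change 1.27 ± 0.28 (SE), adjusted p = 0.0012). On slide 2 alone the log2 change of Ifit1 was 1.47 without passing the test (adjusted p = 0.095).

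Macrophage markers moved less than class II genes, with 7 of 12 higher, 2 lower and a median of 0.27 (0.19 with slide as a block and 0.20 on slide 2). Their summed level, in multiples of the array's 75th percentile, was 56.6 to 78.8 at P4 and 50.1 to 50.3 at 4W. Cd14 rose 3.12-fold, Lyz2 2.96-fold and Mertk 2.41-fold, and Itgam fell 1.95-fold. Lymphocyte markers were divided, 7 of 17 higher and 5 lower (median 0.18, 0.33 with slide as a block and 0.34 on slide 2). Among all genes 33.8% were higher and 34.3% lower, so such a split is not particular to this list. Ms4a1, of B cells, was above background at P4 only and at least 4.07-fold lower at 4W. Gzma, of cytotoxic cells, rose 2.69-fold. Lymphocyte markers summed to 12.9 to 15.6 at P4 and 16.2 to 16.9 at 4W. The part of immune cells in the rise of antigen presentation was not tested.

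Markers of neutrophils and their precursors fell at 9 of 13 members and rose at 1 (median -1.20, or -0.78 with 4 at their bound, -0.72 with slide as a block and -0.72 on slide 2), and their summed level was 12.3 to 13.3 at P4 and 7.14 to 8.03 at 4W. S100a8, of neutrophil calprotectin, read 0.72, 0.70, 0.70 and 0.76 at P4 and -3.01, -2.81 and -3.01 at 4W and fell 12.7-fold (log2 change -3.66 ± 0.059 (SE), adjusted p = 1.72e-14). Its partner S100a9 fell 12-fold, and Retnlg was at least 4.08-fold lower. Erythroid markers fell at 8 of 14 members, with 1 higher (median -0.55, or -0.32 with 2 at their bound, -0.57 with slide as a block and -0.79 on slide 2), and their summed level was 515 to 622 at P4 and 489 to 512 at 4W. Slc4a1, the anion exchanger of red cells, fell 9-fold.

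Vessels, nerves and stroma gave mixed lists. Endothelial markers were higher at 6 of 18 members and lower at 11, at a median of -0.26 (-0.33 with slide as a block and -0.27 on slide 2) that turned positive under scaling by the array median, and their summed level was 273 to 299 at P4 and 219 to 224 at 4W. Cldn5, of tight junctions, read 5.53, 5.53, 5.68 and 5.48 at P4 and 2.76, 2.74 and 2.67 at 4W and fell 7.11-fold (log2 change -2.83 ± 0.058 (SE), adjusted p = 1.65e-13), whereas Flt1, a receptor for vascular endothelial growth factor, rose 2.04-fold. Mural cell markers were higher at 5 of 10 and lower at 2 (median 0.14, 0.10 with slide as a block and 0.09 on slide 2). Rgs5, of pericytes, rose 2.52-fold. Des, also of muscle, rose 5.16-fold. Mcam rose 1.69-fold by its brightest probe, but fell by 0.21 in the mean of its probes. Schwann cell and nerve markers had 3 of 13 higher and 6 lower, at a median of -0.30 (-0.27 with slide as a block and -0.37 on slide 2), positive under scaling by the array median. Gap43, of growing axons, was above background at P4 only (0.16, 0.13, 0.31 and 0.14) and at least 19.4-fold lower, and Th, tyrosine hydroxylase of sympathetic nerves, rose 2.04-fold. Preadipocyte and fibroblast markers had 5 of 12 higher and 7 lower (median -0.58, -0.62 with slide as a block and -0.57 on slide 2), and a summed level of 189.6 to 229.7 at P4 and 77.1 to 81.1 at 4W. Dlk1 carried this difference, since without it the sum was 67.8 to 81.7 at P4 and 73.8 to 77.4 at 4W. F3, tissue factor, rose 4.26-fold, and Mfap5 fell 2.99-fold.

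Skin epithelium markers, a check for tissue carried over at dissection, had 1 of 7 higher and 3 lower (median -0.24, -0.015 with slide as a block and -0.11 on slide 2), with the sign turned under scaling by the array median, and summed levels of 12.7 to 15.9 at P4 and 11.4 to 12.3 at 4W. Of 12 liver markers 7 were measured, and of these Cyp2e1 and Apoa2 were higher and none lower (median 0.17, 0.45 with slide as a block and 0.27 on slide 2), and their summed level was 5.66 to 6.98 at P4 and 37.9 to 39.9 at 4W. Cyp2e1 made up 24.3 to 24.96 of that sum at 4W, and without it the sum was 5.61 to 6.91 at P4 and 13.5 to 15.5 at 4W. Afp and Fgb were not above background at either age.

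The largest rises outside the muscle lists include enzymes and carriers of foreign compounds and sugar. Cyp2b10, a cytochrome P450, was not well above background on any P4 array and read 4.73, 4.72 and 4.78 at 4W, at least 545-fold higher (adjusted p = 1.86e-11). Its smallest log2 change over the alternatives was 7.65, below that bound. Its mean at 8W was 0.62. Cyp2e1, which oxidises ethanol and ketone bodies, read -4.14, -3.61, -3.13 and -3.87 at P4 and 4.64, 4.60 and 4.61 at 4W. It rose 317-fold (log2 change 8.31 ± 0.18 (SE), adjusted p = 2.21e-13). Slc2a5, the fructose transporter, was above background at 4W only, at 2.20, 2.35 and 2.13, at least 95.4-fold higher (adjusted p = 1.48e-10). Its smallest log2 change over the alternatives was 5.12, also below its bound. Aspg, an asparaginase, read -0.62, -0.64, -0.52 and -0.65 at P4 and 6.13, 5.98 and 6.16 at 4W and rose 104-fold (log2 change 6.70 ± 0.09 (SE), adjusted p = 3.91e-15).

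Major urinary proteins, carriers of small hydrophobic molecules that are best known from liver, also rank here. Mup18, Mup17 and Mup1 were above background at 4W only and at least 58.9-fold, 40.8-fold and 42.5-fold higher. Mup19 read -4.39, -3.35, -4.61 and -3.91 at P4 and 2.24, 2.23 and 2.35 at 4W and rose 80.7-fold. Because the copies are near-identical, a probe may take signal from several of them and the copy measured is uncertain. Liver markers are given above, and their part in these values was not tested. Mup18 had means of 3.21 at E18 and -3.66 at 8W.

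The largest falls were led by Mest. Several of the others are cell division genes, Pbk (at least 30.3-fold lower), Shcbp1 (at least 37.2-fold), Cenph (at least 17.1-fold) and Ska1 (at least 16.9-fold), with Tk1 and Melk given above. Stfa1 and Cstdc5, stefin protease inhibitors found in neutrophils, read 0.70, 0.52, 0.60 and 0.60 and 1.11, 1.03, 0.92 and 1.1 at P4 and were at least 25.9-fold and 35.1-fold lower, and they come from a cluster of similar copies. Agtr2, the fetal type of angiotensin receptor, read 0.78, 0.72, -0.27 and 0.68 at P4, with replicate 3 lowest, and was at least 23.7-fold lower (adjusted p = 6.11e-11).

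Sarcomere genes stood apart from all of these. All 36 members were higher at 4W and none overlapped, at a median of 3.69, or 3.62 with 8 members at their bound (3.77 with slide as a block and 3.8 on slide 2). Over all genes 33.8% were higher and 66.5% did not overlap. Myh4, the fast IIb myosin, read -4.17, -4.07, -4.51 and -4.08 at P4 and 5.50, 5.58 and 5.45 at 4W. It rose 844-fold (log2 change 9.72 ± 0.15 (SE), adjusted p = 9.80e-15). Tcap, the titin cap, read -1.95, -1.60, -1.57 and -1.70 at P4 and 5.14, 5.03 and 5.07 at 4W and rose 110.3-fold (log2 change 6.79 ± 0.095 (SE), adjusted p = 5.06e-15). Actn3, the alpha-actinin of fast fibres, was at least 71.3-fold higher, and Myot, of the Z disc, rose 56.6-fold. Myh7, the slow myosin, rose 26.1-fold, and the perinatal Myh8 rose 40.8-fold. Acta1, skeletal actin, read 0.50, 0.46, 0.45 and 0.46 at P4 and 4.96, 5.02 and 5.04 at 4W and rose 23.2-fold.

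Other skeletal muscle genes followed, 17 of 20 higher and 1 lower, at a median of 4.10, or 3.48 with 7 at their bound (4.10 with slide as a block and 4.06 on slide 2). Ckmt2, the mitochondrial creatine kinase of muscle, was at least 123-fold higher, Ryr1, the calcium release channel, at least 21.4-fold, Ckm 66.1-fold and Pvalb, of fast fibres, 52.7-fold. The member that fell was sarcolipin, Sln (3.59-fold), whose E18 mean was 4.87. Of the genes of developing muscle and heart, 5 of 14 were higher and 1 lower (median 0.01, 0.39 with slide as a block and 0.21 on slide 2). Myl2 and Myf6 were among those higher, Myl2 by 21.1-fold. Myh3, embryonic myosin, was at least 1.83-fold lower, and the heart genes Tnni3 and Myh6 did not pass the test.

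Muscle genes did not follow age in 1 direction. The summed level of the 36 sarcomere genes was lowest at P4, with 39.6 to 42.5 multiples of the 75th percentile, and 8W came next with 55.6 to 58.6. P10 gave 278 to 313, E18 gave 346 to 350, and 4W was highest with 537 to 550. Other skeletal muscle genes summed to 10.2 to 10.9 at P4 and 99.1 to 114 at 4W, and to 8.17 to 8.80 at 8W. Muscle in the sample and expression by brown fat cells were not separated, and their part was not tested.

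**Figure D5:**
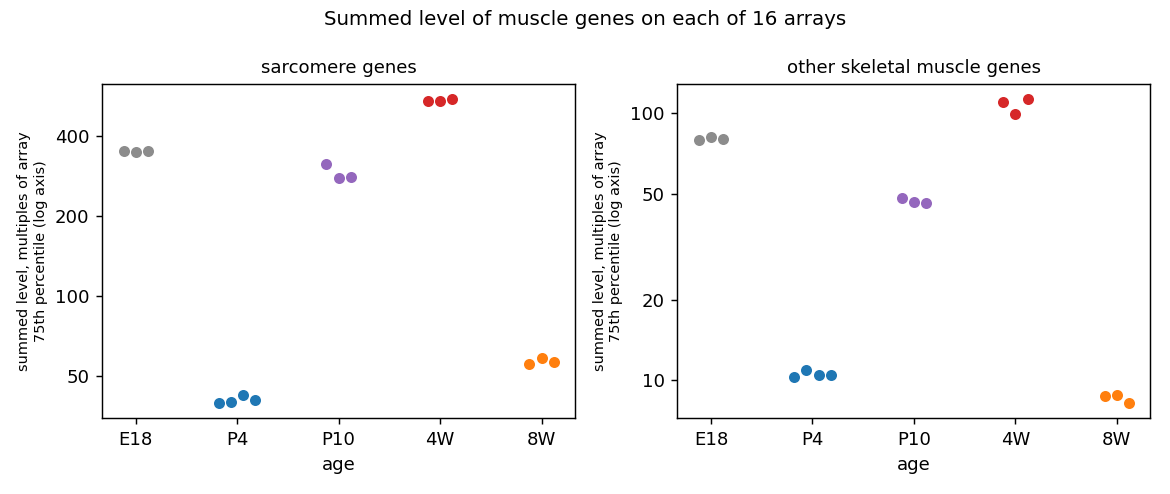
Summed level of 36 sarcomere genes and of 20 other skeletal muscle genes on each of 16 arrays, in multiples of the array's 75th percentile on a log axis, by age. The 4W arrays are highest and the P4 and 8W arrays lowest in both panels, and arrays of an age lie close together.

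As a check of the samples, Xist was not above background on any array of P4 or 4W, while the Y-linked Ddx3y was above background on all 7.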

How the data were processed

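RNA of 16 brown fat samples was hybridised to 1-colour Agilent arrays, 8 on each of 2 slides. The deposited files hold scanner intensity values, which the authors extracted with Agilent Feature Extraction (version 11.0.1.1 per the submitters' processing notes, 11.5.1.1 per the file headers). The deposited series matrix holds log2 processed intensity in which all columns share 1 distribution, as after quantile normalization, and served as an alternative. Its values ranked probes as the scanner values did.

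From each array's 62976 spots, 3671 control spots were left out and 2720 values of non-uniform or outlier spots were set missing. Levels were log2 processed signal minus the array's 75th percentile. Probes had to pass the scanner's background test on 3 or more of the arrays, and a gene took its brightest such probe. Of 55681 probes 27656 were given a symbol, by matching the probe's accession to RefSeq transcripts. With limma 3.58.1 in R 4.3.3, 1 mean per age was fitted over all 16 arrays, and p-values were adjusted by Benjamini-Hochberg. On simulated data for this comparison with 16365 genes, 8, 28, 39 and 46 of 50 changes of 0.25, 0.5, 1 and 2 on the log2 scale were found, and 7 unchanged genes were called. No other genes were changed there and no slide effect was put in, whereas 68.1% of genes were called in the data. These counts therefore show that the fit runs as intended and do not give its error rate here. Of 4202 genes with several kept probes, 302 had probes called in both directions. Between arrays of an age the median SD of a gene was 0.0936 at P4 and 0.0752 at 4W, over genes above background on all of them.

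The gene lists and the rule for naming genes were chosen with earlier results of these data known. Named were a set panel, up to 4 members of each list with the largest change among those past the test without overlap, the 10 largest rises and falls outside muscle lists, and any muscle gene. Some genes that this rule names are not reported here. Other genes were named after their values were seen: Ebf2, Fads1, Fads2, Dgat1, Dgat2, Elovl5, Cs, Pcna, Mcm7, Cdk1, Ccnb2, Cdkn1c, Peg12, Tef, Per3, Nfil3, Afp, Fgb, Xist and Ddx3y. The replicate numbers of the 2 ages gave correlations of deviations of -0.0368, 0.0036 and -0.0483 for same-numbered arrays, so the arrays share only a number. Promoters are RefSeq sequences of GRCm38.p6, with 250 bases before each of 32851 start sites searched, and 13046 of the genes tested matched by symbol. Alternatives changed scaling, background, source of values, filters, probe summary, slide, samples, prior and weights, or left out each array of the 2 ages.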

Additional observations from a re-analysis of the deposited data

Results flagged for a closer look

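Among the 169 named genes, 13 had 1 P4 array whose gap to the nearest of the others was above the 95% critical value of Dixon's test for 4 samples, where chance alone gives about 1 in 20 groups. P4 replicate 3 accounts for 11 of them. It was highest for Cidea at 9.78 (others 9.34 to 9.39), Dlk1 at 7.21 (6.93 to 6.97), Sqle at 2.18 (1.76 to 1.81), Cpt2 at 6.32 (6.13 to 6.15), Fabp3 at 4.73 (4.48 to 4.51), Mfap4 at 3.24 (3.00 to 3.03), Zbtb16 at 2.16 (1.73 to 1.80), Fkbp5 at 1.15 (0.74 to 0.75) and Sox11 at -2.96 (-3.24 to -3.19). It was lowest for Tk1 at 3.09 (3.42 to 3.48) and Agtr2 at -0.27 (0.68 to 0.78). P4 replicate 1 was highest for Ifit3 at -1.02 (-1.69 to -1.60). P4 replicate 2 was highest for Pvalb at -0.46 (-0.96 to -0.90). P4 replicate 3 also had the lowest 75th percentile of signal of the 7 arrays (351). No cause was tested.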

How the results depend on the processing

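The counts of called genes, with and without the muscle lists, stayed within 1.5 times under all 22 alternatives. Leaving out each array in turn gave 10552 to 11276 called genes, 10493 to 11217 outside the muscle lists and 3684 to 4030 called at 2-fold or more. The count at 2-fold or more, 3789 in all, moved to 2206 with normexp background correction (1252 higher, 954 lower) and to 2244 under a stricter filter that asks for a signal above background on every array of the 2 ages (1246 higher, 998 lower), the latter over 12412 genes. Scaling by the array median gave 4080 of that size (2748 higher, 1332 lower) and 9954 called genes. The arrays of the 2 ages share replicate numbers only, and a fit with the replicate number as a block called 10674 genes, 10615 outside the muscle lists. Over 169 named genes and 22 alternatives, 3647 values kept their side of the threshold with no called change reversed. In 16 genes, 25 values lost the call, 2 gained it and 2 reversed. An uncalled change of sign counts among the 3647, as for Ucp1 with slide as a block (0.15). Genes that the stricter filter drops have no value there. Cox7a1 reversed to -0.0971 with series matrix values and Mcam to -0.2089 with the mean of its probes; the cause was not tested. Prdm16 gained a call under scaling by the array median (0.33) and Ucp1 with the series matrix (-0.17). With slide as a block Hbb-bh1 and Krt14 lost their calls. On slide 2 alone 8 genes did, each with a log2 change in the direction found over all arrays: Actc1 (0.49), Adipoq (0.31), Fosb (-0.76), Hbb-bh1 (-0.73), Icam1 (-2.14), Ifit1 (1.47), Krtdap (-0.92) and Sox11 (-1.58). Slide 1 holds no 4W array, the hour and the depot are not given in the sources used here, and 918 genes were not above background on any array of the 2 ages.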
